A study of Homo sapiens with 18 samples.

Results

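The 9 genes described here belong to the major histocompatibility complex (MHC) class I presentation pathway: HLA-B, HLA-C, HLA-E, HLA-F, B2M, TAP1, TAP2, TAPBP and NLRC5. They were taken by symbol from tables of 23686 genes, and all 9 had a row for both lines studied. These lines, OCI-Ly1 and TMD8, derive from human diffuse large B-cell lymphoma. Both received 0.01% DMSO, the vehicle, or JIB-04, an inhibitor of Jumonji-domain histone demethylases, at 150 nM or 500 nM. There were 3 libraries in each of the 6 groups, 18 in all, made from rRNA-depleted total RNA and sequenced as read pairs. OCI-Ly1 was cultured in IMDM and TMD8 in RPMI 1640, with 10% FBS and antibiotics in both, so line and medium cannot be told apart. The libraries are described as technical triplicates and no treatment time is named. The p-values below therefore measure the spread between these libraries, which may be only technical.

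MHC class I molecules carry peptides from inside the cell to its surface, where CD8 T cells read them. A heavy chain, encoded by the HLA genes, pairs with the light chain beta-2-microglobulin (B2M) and receives its peptide in the endoplasmic reticulum, into which the TAP1 and TAP2 transporter pumps peptides and where tapasin (TAPBP) holds the empty molecule at the transporter. NLRC5 is a transcriptional co-activator that is recruited to class I promoters, and interferon signalling raises most of these genes. Loss of class I or of B2M is a recurrent route of immune escape in diffuse large B-cell lymphoma.

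Class I promoters are known for a compact set of elements: an NF-kB site, an interferon-response element, and a module that ends in an X2 and a Y box, to which CREB/ATF and NF-Y factors bind and NLRC5 is recruited. The RefSeq table (GRCh38.p14) held start-site windows for 7 of the 9 members, HLA-E and NLRC5 not among them. The 250 bases before the start are shown for 4 members that differed in their values below, with capitals marking every match, on either strand, to GAAANNGAAA (interferon-response element), GGGNNTTNCC (NF-kB), TGACG (X2 core) or ATTGG (Y box).
HLA-B: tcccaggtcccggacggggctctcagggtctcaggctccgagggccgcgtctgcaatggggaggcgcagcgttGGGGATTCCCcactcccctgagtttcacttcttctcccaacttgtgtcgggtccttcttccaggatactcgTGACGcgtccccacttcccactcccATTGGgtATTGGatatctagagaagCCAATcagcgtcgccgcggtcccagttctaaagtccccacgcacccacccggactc
HLA-F: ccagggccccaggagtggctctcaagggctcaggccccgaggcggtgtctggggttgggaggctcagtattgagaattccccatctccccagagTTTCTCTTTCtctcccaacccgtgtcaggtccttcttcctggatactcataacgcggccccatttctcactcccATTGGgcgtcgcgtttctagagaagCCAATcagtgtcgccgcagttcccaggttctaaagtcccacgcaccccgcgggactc
B2M: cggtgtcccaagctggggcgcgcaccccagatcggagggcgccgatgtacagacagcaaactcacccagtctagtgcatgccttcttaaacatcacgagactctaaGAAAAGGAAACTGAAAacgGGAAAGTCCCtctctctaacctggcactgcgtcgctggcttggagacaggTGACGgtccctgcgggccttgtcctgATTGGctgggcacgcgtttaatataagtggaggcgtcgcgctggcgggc
TAP2: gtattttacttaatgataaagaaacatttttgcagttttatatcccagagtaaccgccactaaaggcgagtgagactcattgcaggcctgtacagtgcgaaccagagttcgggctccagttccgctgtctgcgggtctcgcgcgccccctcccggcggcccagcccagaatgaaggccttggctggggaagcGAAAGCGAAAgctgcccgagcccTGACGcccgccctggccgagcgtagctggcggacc

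These windows lie at chr6:31357180-31357429 on the minus strand for HLA-B, chr6:29723184-29723433 on the plus strand for HLA-F, chr15:44711267-44711516 on the plus strand for B2M and chr6:32838740-32838989 on the minus strand for TAP2, all GRCh38.p14. The HLA-B window held the NF-kB, X2 and Y letters, and the HLA-F window held the interferon and Y letters. The B2M window held all 4, with the 2 interferon matches overlapping each other, and the TAP2 window held the interferon and X2 letters. TAP1 has a second start in the table, which gives 8 member windows of 300 bases, reaching 50 bases past the start. Of these, 5 held GAAANNGAAA, against 3.57% of all 35116 windows of that length, and 4 held GGGNNTTNCC, against 5.68%. TGACG was in 4 of the 8, against 24.6%, and ATTGG in 5, against 34.6%. A match to these letters describes the sequence only and is not evidence of binding in these cells. Only these exact letters were searched, so a window without a match can still hold a variant of the element.

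The depth of a library was 17579732 to 32651115 estimated counts in OCI-Ly1, and in TMD8 it was 9550092 to 20509500. Depth differed with dose, in opposite directions in the 2 lines. OCI-Ly1 held 17579732 to 25545170 with DMSO and 24830313 to 32651115 at 500 nM. TMD8 held 16790982 to 20509500 with DMSO and 9550092 to 14803022 at 500 nM. All 6 B-cell markers were expressed in both lines (summed 538 to 990 TPM over all libraries), and the 5 myeloid markers summed to at most 0.611 TPM. The 7 T-cell and NK-cell markers summed to 34.4 to 39.0 TPM in OCI-Ly1 with DMSO and 17.1 to 20.0 TPM at 500 nM, led by CD3D, CD3G and KLRD1, and to 4.45 to 5.63 TPM over all TMD8 libraries. The 5 stromal and endothelial markers summed in TMD8 to 1.19 to 1.32 TPM with DMSO and to 3.36 to 3.93 TPM at 500 nM. Of these, COL1A1 ran from 0.389 to 2.86 TPM over all TMD8 libraries, with a log2 change of 3.08 at 500 nM. PECAM1 ran from 0.647 to 0.972 TPM, and COL1A2, COL3A1 and VWF were at most 0.192 TPM. The part of these marker shifts, and of the shifts in depth, in the results below was not tested. In TMD8 the 10 highest genes, led by MIR3687, MIR3648 and MIR663A, held 54.3% to 62.1% of all TPM with DMSO and 71.2% to 74.3% at 500 nM, and TPM sums to 1000000 in every library. Changes are therefore given on normalised counts per 1000000 (CPM, scaled by TMM), and TPM is used to compare genes with each other. Heavy-chain genes are near copies of one another and differ between people, and the alleles of these lines are not known here, so the split of reads among them is uncertain and their estimated counts were also tested as 1 sum over HLA-B, HLA-C, HLA-E and HLA-F.

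With DMSO alone, OCI-Ly1 held far less RNA than TMD8 for most of these genes. HLA-B was at 9.47, 10.9 and 8.96 TPM in the 3 OCI-Ly1 libraries and at 144, 120 and 121 TPM in TMD8. HLA-E, a non-classical heavy chain that NK-cell receptors read, was at 2.15, 2.03 and 2.52 TPM against 36.6, 34.6 and 35.2 TPM. NLRC5 was at 0.654, 0.618 and 0.704 TPM against 10.3, 9.56 and 9.57 TPM. For each of these 3 genes every OCI-Ly1 library lay far below every TMD8 library. On TMM counts of all 18 libraries in 1 edgeR fit, the log2 difference, OCI-Ly1 minus TMD8, was -4.69 for HLA-B (SE 0.08, adjusted p = 2.05e-27), -4.95 for HLA-E (SE 0.08, adjusted p = 1.46e-27) and -4.86 for NLRC5 (SE 0.08, adjusted p = 5.5e-27). A bulk value cannot tell fewer expressing cells from less RNA per cell.

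Of the other members, HLA-C, TAPBP and B2M differed less. HLA-C, the remaining classical heavy chain of the set, was at 51.0, 49.7 and 45.5 CPM in OCI-Ly1 and 143, 155 and 162 CPM in TMD8 on the same scale. Its log2 difference was -1.66 on TMM counts (SE 0.07, adjusted p = 1.66e-18, edgeR). The log2 differences of tapasin (TAPBP) and B2M were -1.84 (SE 0.06, adjusted p = 6.68e-21) and -1.07 (SE 0.07, adjusted p = 1.62e-14) in the same edgeR fit. The size of the B2M difference depended on the scale: on log2(TPM + 1) it was -0.11 and did not pass. The median of all tested genes itself stood at 0.61 on that scale. HLA-F, a non-classical heavy chain, had only 1.02, 2.04 and 6.14 estimated counts in the OCI-Ly1 libraries, and 85.8, 92.3 and 105 in TMD8; so close to the floor of 3 counts, no fold is given.

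The transporter genes did not share this gap. TAP1 was at 53.0, 51.6 and 45.2 CPM in OCI-Ly1 and 58.6, 54.8 and 58.4 CPM in TMD8 on the scale of all 18 libraries. The groups did not overlap, and edgeR called TAP1 lower in OCI-Ly1 by a log2 difference of -0.20 (SE 0.07, adjusted p = 0.0108); on log2(TPM + 1) the sign turned, to 0.73, and with those values centred on each library's median the difference was 0.0035. The median of all tested genes stood at 0.61 on log2(TPM + 1) and at -0.11 once centred. The TAP1 call was also lost without OCI-Ly1 DMSO replicate 3 (-0.13), with library size alone (-0.049) and with a block per replicate number. TAP2 was at 127, 123 and 112 CPM against 108, 110 and 113 CPM, with overlapping groups and a log2 difference of 0.13 (95% interval 0.01 to 0.25) that did not pass the test (adjusted p = 0.0581, edgeR). In all, 8 of the 9 members were called lower in OCI-Ly1, TAP1 among them, where 39% of 16604 tested genes were lower and 37.8% higher; the median log2 difference was -1.84 over the members and -0.02 over all tested genes.

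Among the related genes, the interferon signalling list was lower in OCI-Ly1 for 9 of 11 genes, by a median of -0.89 on the log2 scale. It included JAK2, a kinase of the interferon-gamma receptor, at -2.28 (SE 0.07, adjusted p = 6.9e-21, edgeR) and IRF9, the DNA-binding part of the ISGF3 complex, at -1.57 (SE 0.09, adjusted p = 1.44e-15, edgeR). The class I transcription factors split evenly, 6 of 12 lower and 6 higher (median 0.02). Peptide supply, the proteasome and peptidase genes, had 4 of 9 higher and 2 lower (median 0.10), and the loading chaperones had 3 of 8 higher and 4 lower (median -0.02). Class I-like molecules had 4 of 9 higher and 5 lower (median -0.89), and surface turnover 2 of 8 higher and 5 lower (median -0.33). The B-cell markers had 1 of 6 higher and 5 lower (median -1.17). Of all tested genes, 37.8% were higher and 39% lower.

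**Figure D1:**
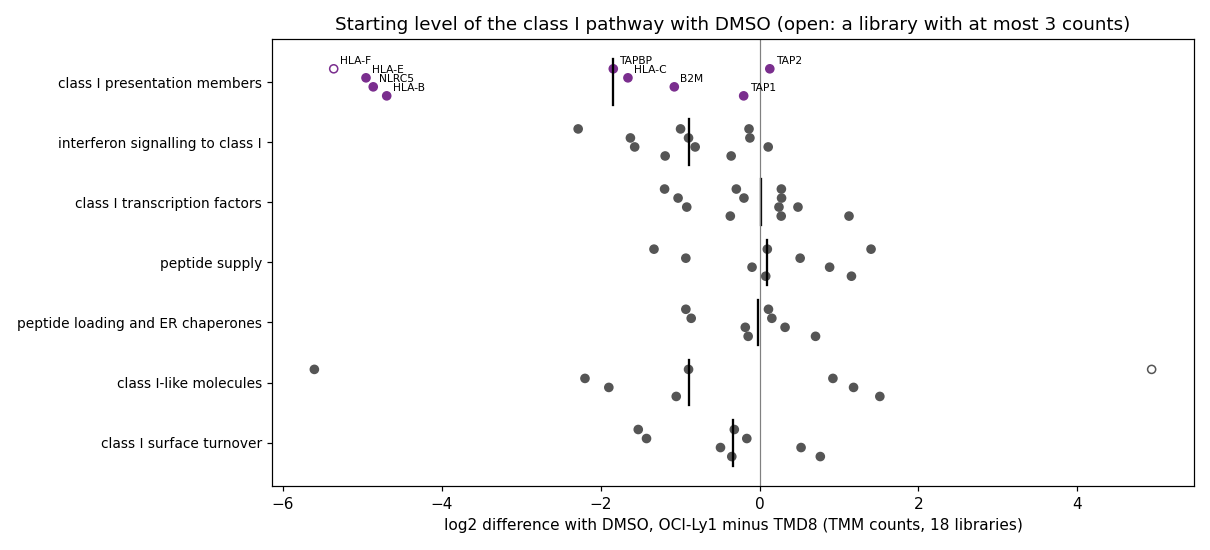
Log2 difference with DMSO between the lines (OCI-Ly1 minus TMD8, TMM counts) on the horizontal axis, for each tested gene of 7 lists on the vertical axis; points are genes, short vertical lines are list medians, and open points are genes with a library at 3 counts or fewer. HLA-E, NLRC5 and HLA-B lie between -4.95 and -4.69, while TAP1 and TAP2 lie next to 0.

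The order of the members by TPM also differed between the lines. With DMSO, OCI-Ly1 ran B2M (530 to 618 TPM), HLA-C (42.3 to 45.5), TAPBP (37.8 to 40.1), TAP2 (33.9 to 38.9), TAP1 (21.5 to 24.1), HLA-B (8.96 to 10.9), HLA-E (2.03 to 2.52), NLRC5 (0.618 to 0.704) and HLA-F (0.0352 to 0.302). TAPBP and TAP2 were the only neighbours there whose libraries overlapped. TMD8 ran B2M (577 to 729 TPM), HLA-B (120 to 144), TAPBP (66.8 to 73.1) with HLA-C (69.5 to 71.8), HLA-E (34.6 to 36.6), TAP2 (15.1 to 15.9) with TAP1 (12.5 to 15.1), NLRC5 (9.56 to 10.3) and HLA-F (3.02 to 3.50). HLA-C and TAPBP overlapped in TMD8, and TAP1 and TAP2 met at 15.1 TPM. Both transporter genes thus stood above HLA-B in OCI-Ly1 and below it in TMD8.

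In OCI-Ly1, 150 nM JIB-04 gave no call among the members. edgeR called 0 of the 8 tested members, 0 passed at an unadjusted p under 0.05, and DESeq2 also called 0; over all 15638 tested genes edgeR called 0.889%. The 95% intervals of the log2 change ran from -0.08 to 0.36 for HLA-B, from -0.22 to 0.42 for NLRC5 and from -0.06 to 0.16 for B2M. The heavy-chain sum changed by 0.02 on the log2 scale (95% interval -0.11 to 0.15, adjusted p = 0.954, edgeR).

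At 500 nM, the classical heavy chains, the light chain and NLRC5 rose in OCI-Ly1, while the transporter and tapasin genes gave no call. HLA-B was at 10.9, 12.7 and 9.93 CPM with DMSO, 11.2, 13.5 and 11.9 CPM at 150 nM and 17.2, 15.8 and 15.3 CPM at 500 nM. All 3 libraries at 500 nM lay above the other 6. Its log2 change against DMSO was 0.54 (SE 0.11, a 1.45-fold rise, adjusted p = 4.37e-04, edgeR). HLA-C went from 52.7, 51.8 and 47.4 CPM with DMSO to 59.3, 63.6 and 58.9 CPM at 500 nM, again without overlap, a log2 change of 0.26 (SE 0.07, adjusted p = 0.0063, edgeR). The heavy-chain sum rose by 0.31 on the log2 scale (SE 0.06, adjusted p = 5.29e-04, edgeR).

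NLRC5, the co-activator, showed the largest rise of the tested members in OCI-Ly1. It was at 3.49, 3.34 and 3.63 CPM with DMSO, 3.87, 4.25 and 3.03 CPM at 150 nM and 6.08, 5.34 and 5.34 CPM at 500 nM, from 57 to 204 estimated counts per library. The DMSO and 150 nM libraries overlapped and those at 500 nM stood above both. Its log2 change at 500 nM was 0.68 (SE 0.16, a 1.6-fold rise, adjusted p = 0.0014, edgeR), and on centred log2(TPM + 1) it was 0.15 and did not pass. With DMSO, NLRC5 was at 0.618 to 0.704 TPM in OCI-Ly1, and adding 1 compresses a change at such a level. The median of all tested genes stood at -0.12 on that centred scale. B2M went from 357, 421 and 391 CPM with DMSO to 449, 452 and 442 CPM at 500 nM, a log2 change of 0.20 (SE 0.06, adjusted p = 0.0065, edgeR). Without OCI-Ly1 DMSO replicate 1, the lowest library, the change in B2M was 0.14 with an adjusted p of 0.0534 (edgeR).

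The remaining OCI-Ly1 members did not pass at 500 nM. HLA-E was at 4.36, 4.17 and 4.96 CPM with DMSO and 5.18, 6.20 and 5.14 CPM at 500 nM, without overlap. Its log2 change of 0.28 (95% interval 0.00 to 0.56) had an unadjusted p of 0.0635 and an adjusted p of 0.104 (edgeR). TAP1 changed by 0.03 (95% interval -0.11 to 0.18), TAP2 by -0.05 (-0.18 to 0.08) and TAPBP by -0.07 (-0.18 to 0.05). HLA-F, at 0 to 6.14 estimated counts per library, was under the count filter. Thus 4 of 8 tested members rose and 0 fell (0 at an unadjusted p under 0.05, and 0 by DESeq2), against 27.7% of all tested genes called higher and 25.9% lower. The median log2 change was 0.23 over these members and 0.00 over all tested genes. On centred log2(TPM + 1), only HLA-B was called higher of these 8, and TAP2 (-0.23) and TAPBP (-0.16) were called lower. The median of all tested genes itself stood at -0.12 on that scale.

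Between 150 nM and 500 nM, the same 4 OCI-Ly1 genes passed: HLA-B by 0.40, HLA-C by 0.29, NLRC5 by 0.58 and B2M by 0.15 on the log2 scale (adjusted p = 0.0052, 0.0040, 0.0051 and 0.0375, edgeR), where 25.1% of all genes were called higher and 21.1% lower. The B2M call was lost in 4 of the 6 fits that left out 1 library, with changes of 0.10 to 0.16.

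**Figure D2:**
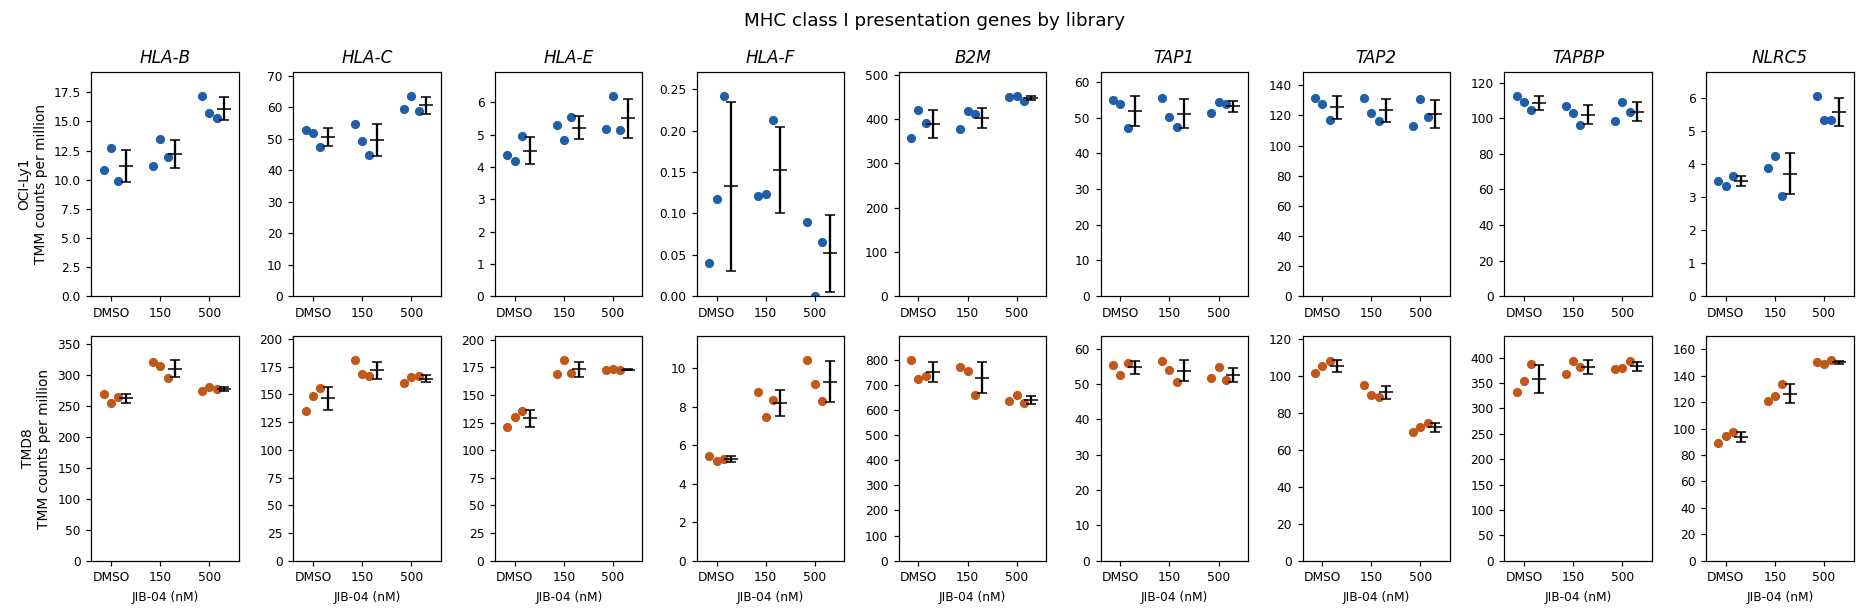
Normalised counts per 1000000 (vertical axes, from 0, a scale per panel) of the 9 members against JIB-04 dose (horizontal axes), OCI-Ly1 above and TMD8 below; points are libraries, and bars beside them are mean and SD of 3. HLA-B and NLRC5 stand apart at 500 nM in OCI-Ly1, and in TMD8 NLRC5 climbs and TAP2 declines at each dose.

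In TMD8 calls were made from 150 nM on. NLRC5 was at 89.4, 94.8 and 97.1 CPM with DMSO, 121, 125 and 134 CPM at 150 nM and 150, 149 and 152 CPM at 500 nM, so that the 3 groups did not overlap. Its log2 change was 0.43 at 150 nM (SE 0.05, adjusted p = 2.6e-06) and 0.68 at 500 nM (SE 0.05, a 1.6-fold rise, adjusted p = 2.7e-09), and 0.25 from the lower to the higher dose (SE 0.05, adjusted p = 0.0013, edgeR).

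The non-classical heavy chains rose at both doses in TMD8. HLA-E was at 121, 130 and 136 CPM with DMSO, 169, 181 and 170 CPM at 150 nM and 172, 173 and 173 CPM at 500 nM. The log2 change was 0.43 at 150 nM and 0.42 at 500 nM (SE 0.05 for both, adjusted p = 3.08e-06 and 1.13e-06, edgeR), with -0.01 between the doses (95% interval -0.10 to 0.09). HLA-F was at 5.46, 5.16 and 5.28 CPM with DMSO, 8.78, 7.46 and 8.33 CPM at 150 nM and 10.4, 9.20 and 8.29 CPM at 500 nM. The treated libraries all lay above those with DMSO and the 2 doses overlapped. HLA-F rose by 0.63 at 150 nM (SE 0.12, adjusted p = 4.76e-04) and by 0.82 at 500 nM (SE 0.12, a 1.77-fold rise, adjusted p = 1.66e-05, edgeR), on 80.8 to 168 estimated counts per library.

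The classical heavy chains moved less, and HLA-B was highest at the lower dose. HLA-B was at 269, 255 and 264 CPM with DMSO, 320, 315 and 295 CPM at 150 nM and 275, 281 and 278 CPM at 500 nM. Its log2 change was 0.24 at 150 nM (SE 0.05, adjusted p = 3.83e-04, edgeR) and 0.08 at 500 nM (95% interval -0.01 to 0.17, adjusted p = 0.137, edgeR), and from 150 to 500 nM it fell by 0.16 (SE 0.05, adjusted p = 0.0154, edgeR). That last call was lost in 4 of the 6 fits without 1 library, at -0.14 to -0.16. HLA-C was at 135, 149 and 155 CPM with DMSO, 181, 168 and 167 CPM at 150 nM and 160, 166 and 166 CPM at 500 nM. It rose by 0.23 at 150 nM (SE 0.05, adjusted p = 0.0022) and by 0.16 at 500 nM (SE 0.05, adjusted p = 0.0150, edgeR), the second call being lost without TMD8 DMSO replicate 1 (0.11), 500 nM replicate 2 or 500 nM replicate 3 (0.15 in each). The heavy-chain sum rose by 0.29 at 150 nM (SE 0.05, adjusted p = 6.83e-05) and by 0.20 at 500 nM (SE 0.05, adjusted p = 0.0011, edgeR).

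TAP2 and B2M moved the other way in TMD8. TAP2 was at 102, 106 and 108 CPM with DMSO, 95.1, 89.9 and 88.6 CPM at 150 nM and 69.7, 72.4 and 74.6 CPM at 500 nM, with no overlap among the 3 groups. It fell by 0.21 at 150 nM (SE 0.05, adjusted p = 0.0018) and by 0.55 at 500 nM (SE 0.05, a ratio of 0.685, adjusted p = 3.56e-08, edgeR). TAP1, its partner in the transporter, was at 55.5, 52.6 and 56.0 CPM with DMSO and 51.8, 54.8 and 51.0 CPM at 500 nM, overlapping, with a log2 change of -0.06 (95% interval -0.17 to 0.06, adjusted p = 0.421, edgeR). B2M was at 798, 724 and 734 CPM with DMSO, 772, 756 and 659 CPM at 150 nM and 636, 659 and 629 CPM at 500 nM. It did not pass at 150 nM (-0.04, 95% interval -0.16 to 0.07, adjusted p = 0.574, edgeR) and fell by 0.23 at 500 nM (SE 0.06, adjusted p = 0.0030, edgeR). TAPBP changed by 0.09 at 150 nM (95% interval -0.01 to 0.20) and by 0.10 at 500 nM (-0.01 to 0.21), neither passing.

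At 150 nM, 5 of the 9 TMD8 members rose and 1 fell, against 19.2% of 15363 tested genes called higher and 25% lower. At 500 nM, 4 rose and 2 fell, against 29.9% and 30.7%. The median log2 change of the members was 0.23 at 150 nM and 0.10 at 500 nM, and that of all tested genes 0.01 and 0.04. From 150 to 500 nM, NLRC5 was called higher and HLA-B, TAP2 (-0.34) and B2M (-0.18) lower, against 13.7% and 15% of all genes, and leaving out 1 library left 1 to 3 of the 3 lower calls. TAP2 kept its call in each of those fits.

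**Figure D3:**
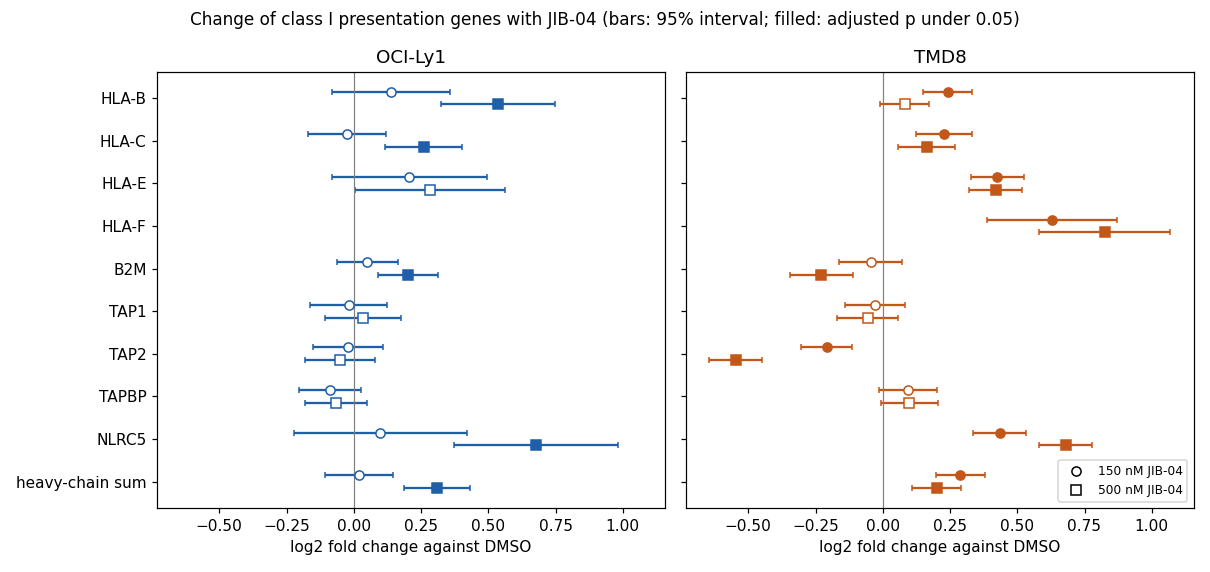
Log2 fold change against DMSO (horizontal axis) of the 9 members and the heavy-chain sum (vertical axis) in each line; circles are 150 nM, squares 500 nM, bars 95% intervals, and filled symbols passed at an adjusted p under 0.05 in edgeR. In TMD8, TAP2 lies at -0.55 and NLRC5 at 0.68 at 500 nM, and OCI-Ly1 has no filled circle.

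The direction of several TMD8 changes depended on the scale. On log2(TPM + 1), the median of all genes itself moved by -0.22 at 500 nM in TMD8 and by 0.10 in OCI-Ly1. On that scale HLA-B, HLA-C and TAPBP in TMD8 stood at -0.29, -0.20 and -0.29 at 500 nM, and the heavy-chain sum at -0.20, each of opposite sign to the TMM value; HLA-B and TAPBP passed there, HLA-C and the sum did not. After each library was centred on its median, HLA-C stood at 0.05 and the sum at 0.055. HLA-E, at 0.05 on log2(TPM + 1), did not pass there at 500 nM, while on the centred values it rose by 0.30. The rise of NLRC5 and HLA-F and the fall of TAP2 and B2M in TMD8 at 500 nM passed on all 5 scales tried. In TPM, NLRC5 stood at 11.3, 12.1 and 13.0 at 500 nM in TMD8, above TAP1 (9.21, 10.5 and 10.3) and TAP2 (8.08, 9.04 and 9.51), whereas with DMSO it stood below both.

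**Figure D4:**
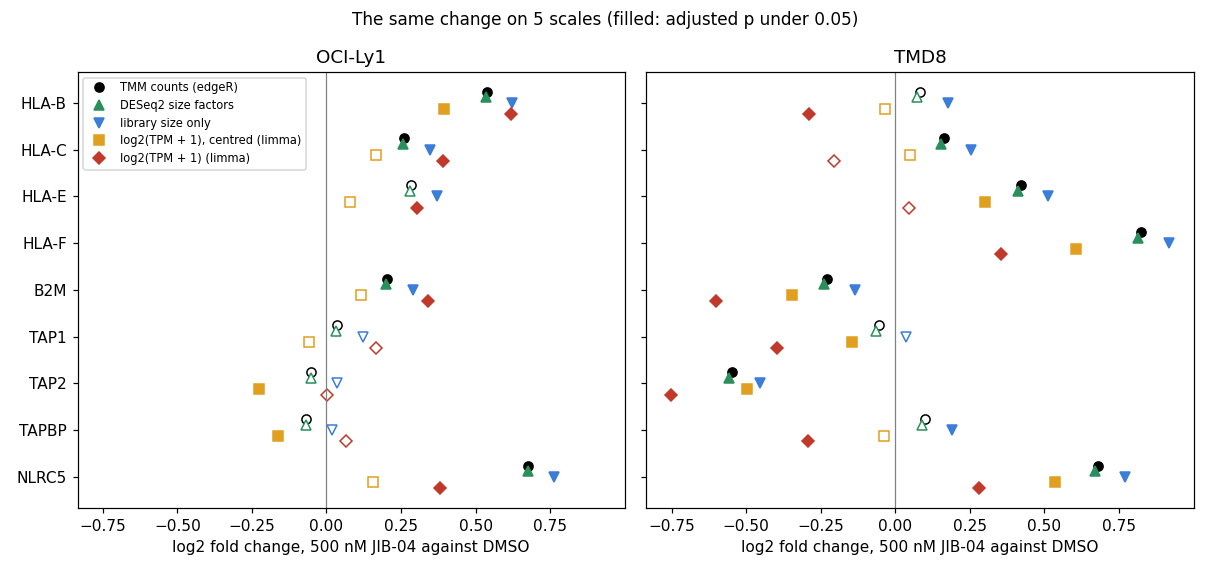
Log2 fold change at 500 nM against DMSO (horizontal axis) for each member (vertical axis) in each line, computed on 5 scales given by symbol; filled symbols passed at an adjusted p under 0.05. In TMD8, HLA-B runs from -0.29 on log2(TPM + 1) to 0.18 with library size alone, while NLRC5 stays above 0 and TAP2 below 0 on all 5.

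The change against DMSO was compared between the lines in the fit of 18 libraries, as OCI-Ly1 minus TMD8. At 500 nM the difference passed for HLA-B (0.49, SE 0.10, adjusted p = 3.21e-04), B2M (0.46, SE 0.09, adjusted p = 1.8e-04) and TAP2 (0.53, SE 0.09, adjusted p = 2.7e-05, edgeR), each less negative or higher in OCI-Ly1, where 28.2% of all tested genes were called in that direction and 18.1% in the other. B2M had moved in opposite directions, up by 0.20 in OCI-Ly1 and down by 0.23 in TMD8. HLA-F was also called, in the other direction, but its OCI-Ly1 side rests on 0 to 6.14 counts and no value is given. For NLRC5, which rose by 0.68 in both lines, the difference was 0.03 (95% interval -0.21 to 0.26, adjusted p = 0.882, edgeR), but on centred log2(TPM + 1) it was -0.35 and passed. With DMSO, NLRC5 was at 0.618 to 0.704 TPM in OCI-Ly1, under the 1 added on that scale, and at 9.56 to 10.3 TPM in TMD8. Adding 1 compresses a change more at the lower level. The intervals were -0.06 to 0.31 for HLA-C, -0.35 to 0.12 for HLA-E, -0.07 to 0.31 for TAP1 and -0.30 to 0.02 for TAPBP.

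At 150 nM the difference between the lines passed for 0 of the 9 members in edgeR (1 higher and 3 lower at an unadjusted p under 0.05, and 0 by DESeq2), against 15% of all genes higher and 8.33% lower. Other fits called members lower: HLA-C, TAPBP and NLRC5 with library size alone, HLA-F and NLRC5 on centred log2(TPM + 1), HLA-C with a block per replicate number, and 0 to 2 members when 1 library was left out. For the heavy-chain sum it passed, at -0.26 (SE 0.08, adjusted p = 0.0159, edgeR): the sum had risen by 0.29 in TMD8 and changed by 0.02 in OCI-Ly1. That call was lost without OCI-Ly1 DMSO replicate 2 (-0.23) or OCI-Ly1 150 nM replicate 3 (-0.21).

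Other genes of the pathway were read from lists chosen by name. Peptide supply, which covers the immunoproteasome subunits, the PA28 activator and the trimming peptidases, was lower at 500 nM for 8 of 9 genes in OCI-Ly1 and for 6 of 9 in TMD8, with 2 higher there. The list medians were -0.25 and -0.39 on the log2 scale, and 25.9% and 30.7% of all genes were called lower. The shares called higher, 27.7% in OCI-Ly1 and 29.9% in TMD8, and these lower shares are the background for the counts of the other lists too. In OCI-Ly1, PSMB8, an immunoproteasome subunit, fell from 83.7 ± 4.41 to 50.6 ± 2.56 CPM (mean ± SD, n = 3), a log2 change of -0.72 (SE 0.06, adjusted p = 2.4e-08, edgeR). PSME1, a PA28 subunit, and PSMB10, an immunoproteasome subunit, fell by 0.39 and 0.38. In TMD8, PSME2, the partner of PSME1, fell from 137 ± 3.43 to 75.7 ± 0.785 CPM (mean ± SD, n = 3), a log2 change of -0.86 (SE 0.05, adjusted p = 1.39e-10, edgeR), with PSMB9, an immunoproteasome subunit, at -0.67 and PSME1 at -0.58.

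The endoplasmic reticulum chaperones that fold and load class I molecules were lower at 500 nM for 5 of 8 genes in OCI-Ly1 and 7 of 8 in TMD8 (medians -0.26 and -0.36). CALR, calreticulin of the loading complex, went from 826 ± 29.7 to 427 ± 14.7 CPM in OCI-Ly1 (mean ± SD, n = 3), a log2 change of -0.95 (SE 0.05, adjusted p = 2.3e-11, edgeR). The chaperone HSPA5 and the loading-complex disulphide isomerase PDIA3 fell there by 0.70 and 0.60. In TMD8, GANAB, a glucosidase subunit that trims glycans for the calnexin cycle, PDIA3 and calnexin (CANX) fell by 0.63, 0.63 and 0.61. No member of this list was called higher in either line by edgeR, and 0 were higher at an unadjusted p under 0.05.

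Among the transcription factors of class I genes, IRF1, an interferon-induced activator, rose in both lines at 500 nM. OCI-Ly1 held 20.5 ± 1.89 CPM with DMSO and 37.0 ± 0.897 CPM at 500 nM, and TMD8 15.4 ± 2.35 and 32.1 ± 1.21 CPM (mean ± SD, n = 3 per group). The log2 changes were 0.86 (SE 0.08, adjusted p = 4.4e-08) and 1.04 (SE 0.09, adjusted p = 3.34e-08, edgeR). RFXANK, a subunit of the RFX complex that binds the X box, rose by 0.87 in OCI-Ly1 and stood at -0.00 in TMD8, a difference between lines of 0.90 (SE 0.11, adjusted p = 1.32e-07, edgeR). NFYB and NFYC, subunits of the Y-box factor NF-Y, fell by 0.62 and 0.38 in TMD8. IRF2, a factor related to IRF1, rose by 0.39 in OCI-Ly1. Over the list, 5 of 12 rose and 2 fell in OCI-Ly1 and 2 rose and 7 fell in TMD8 (medians 0.13 and -0.19); the 2 falls in OCI-Ly1 and the 2 rises in TMD8 lay under the shares of all genes, 25.9% and 29.9%.

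Interferon signalling genes were higher for 8 of 11 genes in OCI-Ly1 at 500 nM, and in TMD8 for 5, with 2 lower (medians 0.40 and 0.10), where the share of all genes called higher was 27.7% in OCI-Ly1 and 29.9% in TMD8, and 30.7% were lower in TMD8. SOCS1, a feedback inhibitor of JAK kinases, rose by 1.02 in OCI-Ly1 (SE 0.14, adjusted p = 6.3e-06, edgeR) and by 1.54 in TMD8 (SE 0.09, adjusted p = 7.1e-11, edgeR). In OCI-Ly1 the kinase gene JAK2 and the ISGF3 subunit IRF9 rose by 0.61 and 0.60. In TMD8 the ISGF3 subunit STAT2 rose by 0.59, and PTPN2, a phosphatase that acts on JAK1, fell by 0.44. In OCI-Ly1 PTPN2 stood at 105 ± 6.15 CPM with DMSO and 119 ± 3.12 CPM at 500 nM (mean ± SD, n = 3). The list counts inhibitors such as SOCS1 and PTPN2 together with activators.

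The class I-like molecules are relatives of the heavy chains that present other ligands or bind NK-cell receptors. ULBP1, a ligand of the NKG2D receptor, rose from 6.25 ± 1.49 to 23.3 ± 0.383 CPM in OCI-Ly1 (mean ± SD, n = 3), a log2 change of 1.88 (SE 0.14, adjusted p = 3.2e-09, edgeR), and by 0.69 in TMD8. ULBP2, another NKG2D ligand, and FCGRT, the neonatal Fc receptor heavy chain, which also pairs with B2M, rose in OCI-Ly1 by 1.85 and 1.27. In TMD8 the NKG2D ligand MICA rose by 0.86. MR1, which presents vitamin B metabolites and pairs with B2M, rose by 0.76 in TMD8 and fell by 0.43 in OCI-Ly1, a difference between lines of -1.16 (SE 0.14, adjusted p = 2.06e-07, edgeR). In all, 4 of 9 tested genes rose and 2 fell in OCI-Ly1, and 4 of 7 rose in TMD8, against 27.7% of all genes higher and 25.9% lower in OCI-Ly1 and 29.9% higher in TMD8.

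Of the genes of class I surface turnover, KIAA0247, the listed name of SUSD6, which takes part in lysosomal degradation of class I molecules, rose from 61.0 ± 3.02 to 107 ± 3.81 CPM in TMD8 (mean ± SD, n = 3), a log2 change of 0.81 (SE 0.06, adjusted p = 3.7e-09, edgeR). It stood at -0.09 in OCI-Ly1 (adjusted p = 0.24, edgeR). Of its known partners in that complex, the ligase WWP2 fell by 0.33 in OCI-Ly1. The list held 2 higher and 2 lower of 8 tested in OCI-Ly1 and 4 and 2 of 8 in TMD8 (medians -0.00 and 0.04). In OCI-Ly1 both counts lay near the shares of all genes, 27.7% higher and 25.9% lower, and the TMD8 lower count lay under its 30.7%.

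**Figure D5:**
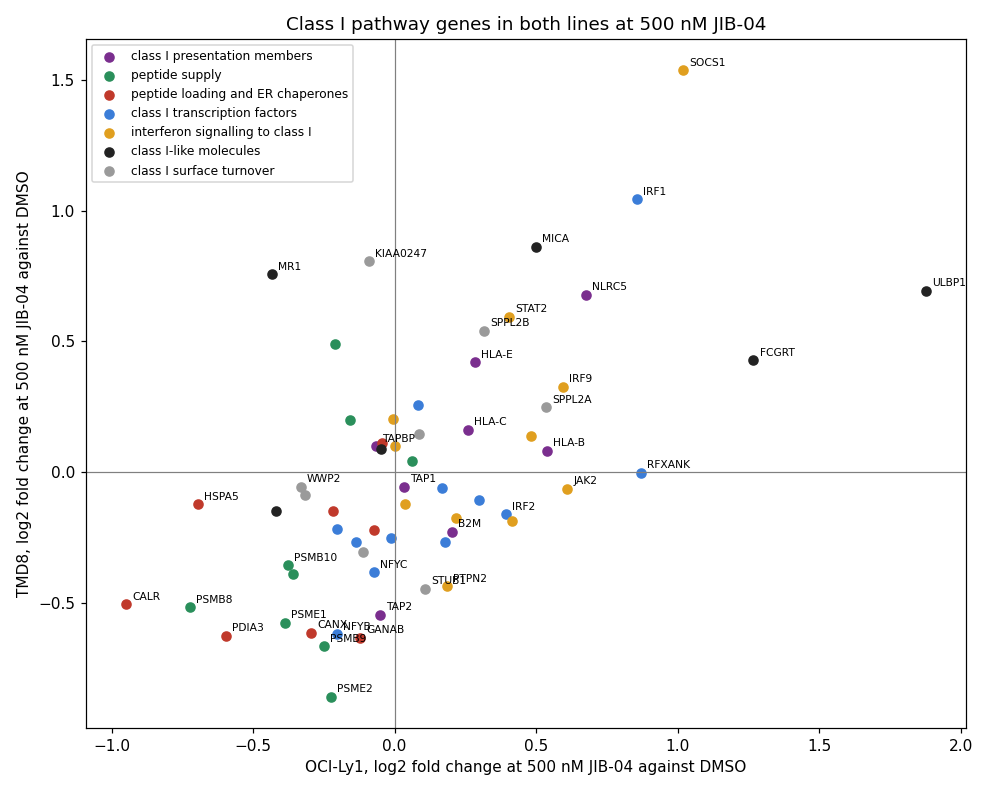
Log2 fold change at 500 nM against DMSO in OCI-Ly1 (horizontal axis) and TMD8 (vertical axis) for members and list genes with over 3 counts in every library compared; colours give the list. NLRC5 lies near IRF1 at the upper right, TAP2 and B2M lie below 0 in TMD8, and the peptide supply and chaperone genes lie mostly in the lower left.

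The genes whose pattern was most like that of a member were found over the 18 libraries, each centred on its line's mean, among 9942 genes. Nearest to NLRC5 were CABLES1, SLC7A5P1 and ACAD11 (Pearson r of 0.966, 0.966 and 0.965), and nearest to B2M were TMEM251, ELOVL5 and ZNF22 (0.937, 0.924 and 0.923). These values describe libraries that share a line, a dose and a depth.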

How the data were processed

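Bulk RNA-seq of 18 libraries was analysed, 3 for each of 3 treatments in 2 cell lines. The authors deposited estimated counts per gene and TPM per gene; per the submitters' processing notes the tools were kallisto 0.46.0, R 4.3.1 and DESeq2 1.40.2, with hg19 as the build. How transcripts were summed to genes is not given in the sources used here. The estimated counts were rounded to whole numbers and fitted with edgeR 4.0.16 in R 4.3.3: TMM normalization, the edgeR low-count filter by group, and the quasi-likelihood test with a term per group. The 9 libraries of a line shared 1 fit, and comparisons between lines used 1 fit of all 18. P-values were adjusted by Benjamini-Hochberg over all tested genes and called under 0.05. The standard error was the log2 change divided by the root of F. Intervals are 95% and use the normal quantile with that standard error, so they are narrower than the quasi-likelihood test implies. An interval that just excludes 0 can therefore stand beside a test that does not pass. With totals of 9550092 to 32651115 counts and no molecular identifiers, the intervals cover the spread of these libraries only. The script was tested on simulated data with 200 changed genes.

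The 9 members, the 10 other lists (82 further genes; 91 of 91 symbols matched, 1 by an older symbol) and the tests were chosen with earlier results of these data known. From each list, at most 3 genes per line were named: those with the largest change at 500 nM among calls whose groups did not overlap and whose libraries all had over 3 counts; a few genes that this rule or the pattern search named are not reported here. The patterns were compared among genes with at least 5 CPM in each line. Alternatives were DESeq2 1.42.0, library size alone, no low-count filter, limma 3.58.1 on log2 of the deposited TPM values + 1 (as is and centred per library), a replicate block and leaving out each library. Libraries of 1 group differed by a chi-square of 1.62 to 10.9 per degree of freedom over genes, so none was a copy. The highest values, 10.3 and 10.9, were those of TMD8 DMSO replicate 1 against replicates 2 and 3. Those other libraries differed from each other by 1.90. Promoter windows came from RefSeq (GRCh38.p14), whose build differs from that of the files, and were used only for their sequence.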

Additional observations from a re-analysis of the deposited data

Results flagged for a closer look

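Several genes differed between the lines in their change against DMSO, by the interaction test of edgeR in the fit of 18 libraries; values are log2, OCI-Ly1 minus TMD8. At 150 nM the heavy-chain sum differed by -0.26. At 500 nM the members HLA-B, B2M and TAP2 differed by 0.49, 0.46 and 0.53. In peptide supply PSMB9 differed by 0.45 and PSME2 by 0.66. Among the chaperones CALR stood at -0.41, HSPA5 at -0.54, CANX at 0.35 and GANAB at 0.54. Among the transcription factors RFXANK stood at 0.90, NFYB at 0.45, NFYC at 0.34 and IRF2 at 0.58. In interferon signalling JAK2 stood at 0.70, IRF9 at 0.30, SOCS1 at -0.50 and PTPN2 at 0.65. Among the class I-like molecules MR1 stood at -1.16, FCGRT at 0.87 and ULBP1 at 1.22. In surface turnover KIAA0247 stood at -0.87, WWP2 at -0.25, STUB1 at 0.58 and SPPL2A at 0.32. WWP2, with an adjusted p of 0.0499 in edgeR, lay closest to the threshold.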

How the results depend on the processing

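Of 42 called results among the members and the heavy-chain sum, 23 kept direction and call under every alternative tried, and 1081 of 1164 alternative values kept theirs; the cause of each change below was not tested. On centred log2(TPM + 1), OCI-Ly1 at 500 nM against DMSO had 1 member higher and 2 lower, and against 150 nM 2 higher. The medians of all tested genes stood there at -0.12 and -0.11. TMD8 at 150 nM had 0 lower on centred log2(TPM + 1). On log2(TPM + 1), TMD8 had 3 higher at 150 nM, 2 higher and 5 lower at 500 nM, and 0 higher from 150 to 500 nM. The TMD8 heavy-chain sum was 0.12 at 150 nM, -0.20 at 500 nM and -0.32 between doses on log2(TPM + 1), and 0.055 at 500 nM and -0.16 between doses when centred. HLA-B, HLA-C and TAPBP in TMD8 at 500 nM turned to -0.29, -0.20 and -0.29 on log2(TPM + 1). For the line difference at 150 nM, members lower were 3 with library size alone, 2 when centred and 1 with the replicate block. At 500 nM, 6 members were higher on log2(TPM + 1) and 2 lower when centred. TAPBP turned to 0.36 on log2(TPM + 1) and NLRC5 to -0.35 when centred. The medians of all tested genes stood at 0.38 on log2(TPM + 1) and -0.07 when centred. With DMSO, members higher in OCI-Ly1 were 1 with DESeq2, 1 with library size alone, 2 on log2(TPM + 1) and 1 when centred. TAP1 turned to 0.73 and 0.0035 on these last scales, where the medians of all tested genes were 0.61 and -0.11.

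Leaving out 1 library left 1 to 3 members lower in TMD8 from 150 to 500 nM, 0 to 2 lower in the line difference at 150 nM, 0 to 1 lower in that at 500 nM and 0 to 1 higher in OCI-Ly1 with DMSO. The TMD8 sum between doses ran from -0.13 (passing, without TMD8 150 nM replicate 3) to -0.074. For the test at 150 nM in OCI-Ly1, genes called higher over the whole table ran from 60 to 264 and lower from 5 to 75. Whether replicate numbers pair the libraries was not settled: same-numbered libraries of a line correlated at -0.05 to 0.15 after group means were removed. In each line, 2 of 9 same-numbered pairs exceeded 0.1, against 0 of 18 other pairs in OCI-Ly1 and 1 of 18 in TMD8. All of these pairs joined a DMSO and a 150 nM library. The replicate block changed 2 member calls, HLA-C in the line difference at 150 nM (-0.25, now passing) and TAP1 with DMSO (-0.18, no longer passing). HLA-F in OCI-Ly1 stood at 0 to 6 counts per library, so close to the floor of 3 counts that no fold is given.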
